A study of Mus musculus with 130 samples.

Results

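Expression of 10 genes that identify Kupffer cells, the macrophages resident in the liver, was measured in whole liver of male mice fed different amounts of iron. They are Clec4f, Vsig4, Timd4, Cd5l, Marco, Adgre1, Folr2, Csf1r, C1qa and Spic. They were chosen by name as known Kupffer cell genes, with earlier results of these data known. All 10 were found among the 35274 gene identifiers of the diet table and the 35711 of the strain table. The diet experiment held 15 C57BL/6J males, 3 on each of 5 diets: 50 ppm iron, 500 ppm iron, chow, 2% carbonyl iron (20000 ppm), and 2% carbonyl iron with cellulose named as the source of fibre. The iron content of the chow and the ages of the mice were not analysed here. The strain panel held 115 males of 114 inbred and recombinant inbred strains, all given chow for 4 weeks and then 2% iron for 6 weeks. It comprised 56 BXD strains (from C57BL/6J and DBA/2J), 20 AXB and BXA strains (from A/J and C57BL/6J), 4 BXH strains (from C57BL/6J and C3H/HeJ), 3 CXB strains (from BALB/cByJ and C57BL/6ByJ) and 31 other inbred strains. Among the BXD strains, the one labelled BXD24/TyJ-Cep290<rd16>/J has a Cep290 mutation in its name. Each strain was 1 mouse, except 129X1/SvJ with 2, and the panel held no mice on another diet.

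Kupffer cells lie in the liver sinusoids, take up bacteria, dying cells and old red blood cells from portal blood, and recycle the iron of haemoglobin. Their identity depends on signals from neighbouring cells, including the growth factors Csf1 and Il34, Notch ligands and bone morphogenetic proteins, and on transcription factors such as PU.1 (Spi1), LXR alpha (Nr1h3), Id3 and Spi-C (Spic). Clec4f, a C-type lectin, is in mice largely limited to Kupffer cells. Vsig4 (the complement receptor CRIg), Timd4 (a receptor for phosphatidylserine on dying cells), Marco (a class A scavenger receptor) and Folr2 (the beta folate receptor) are surface proteins of resident macrophages. Cd5l and C1qa encode secreted proteins, an inhibitor of apoptosis and the A chain of complement C1q, while Adgre1 (F4/80) and Csf1r (the receptor of Csf1 and Il34) are shared by most tissue macrophages.

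The RefSeq promoter sequences of 4 of the members that rose on 2% iron are shown as examples of surface receptors and a secreted protein, and no result below rests on them. Each is 300 bases on GRCm38.p6, 250 before the start and 50 after it, written 5′ to 3′ on the gene's strand. Clec4f (minus strand) is at chr6:83656067-83656366, Vsig4 (minus strand) at chrX:96293389-96293688, Cd5l (plus strand) at chr3:87357631-87357930 and Marco (minus strand) at chr1:120504975-120505274. Capitals mark GAGGAA, the purine-rich core bound by PU.1 and Spi-C, and TGGGAA, the core bound by the Notch effector RBPJ, on either strand (TTCCTC and TTCCCA are their reverse complements). The 2 motifs do not overlap in these windows.
Clec4f: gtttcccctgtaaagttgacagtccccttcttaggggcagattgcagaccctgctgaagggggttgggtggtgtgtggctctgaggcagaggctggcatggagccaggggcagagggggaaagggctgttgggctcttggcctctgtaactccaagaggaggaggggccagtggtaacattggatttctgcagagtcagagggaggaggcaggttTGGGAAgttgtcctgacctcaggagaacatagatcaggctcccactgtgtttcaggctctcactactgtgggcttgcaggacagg
Vsig4: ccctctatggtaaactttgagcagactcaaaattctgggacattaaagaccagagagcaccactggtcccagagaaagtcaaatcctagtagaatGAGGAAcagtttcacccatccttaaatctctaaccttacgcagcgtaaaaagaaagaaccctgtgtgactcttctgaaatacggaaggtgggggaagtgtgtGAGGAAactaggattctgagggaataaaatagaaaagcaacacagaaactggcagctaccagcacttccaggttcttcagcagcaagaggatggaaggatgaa
Cd5l: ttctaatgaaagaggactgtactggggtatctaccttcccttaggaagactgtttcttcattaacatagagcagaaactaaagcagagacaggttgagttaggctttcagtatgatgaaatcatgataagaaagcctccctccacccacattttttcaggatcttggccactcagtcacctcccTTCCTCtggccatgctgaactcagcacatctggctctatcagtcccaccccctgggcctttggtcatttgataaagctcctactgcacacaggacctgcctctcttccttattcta
Marco: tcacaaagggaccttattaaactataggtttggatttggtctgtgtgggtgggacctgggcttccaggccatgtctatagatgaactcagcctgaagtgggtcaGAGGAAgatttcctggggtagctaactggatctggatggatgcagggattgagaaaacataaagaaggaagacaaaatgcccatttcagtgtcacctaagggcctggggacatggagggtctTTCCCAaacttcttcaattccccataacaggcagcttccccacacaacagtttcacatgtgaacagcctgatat

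Of 7 members with a promoter in the table (8 windows, 2 of them for Folr2), 3 held GAGGAA, namely Cd5l, Marco and Vsig4, against 28.3% of all 32851 promoter windows. TGGGAA was in 2, Clec4f and Marco, against 25.6% of all windows. The windows of Timd4, Spic and Folr2 held neither. A match describes the letters only, and neither share sets the members apart.

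In the annotation that fits the files' mm10 build (GENCODE M21, GRCm38) the 9 members given here are protein-coding genes on different chromosomes (the position of Csf1r is not given). Marco lies at chr1:120474538-120505024, Cd5l at chr3:87357881-87371073, C1qa at chr4:136895917-136898803, Clec4f at chr6:83644542-83656187 and Folr2 at chr7:101839988-101857194. Spic lies at chr10:88674772-88685015, Timd4 at chr11:46810800-46844332, Adgre1 at chr17:57358691-57483527 and Vsig4 at chrX:96247203-96293438.

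Library totals were between 10.4 and 20.4 M estimated counts in the diet experiment and between 9.41 and 20.6 M in the panel. Levels below are counts per M counts of the library (CPM). Every member was detected in every library, with at least 11 estimated counts (Spic) in the diet experiment and 5 (Folr2) in the panel. Detection in whole liver does not show which cells the RNA came from. The first principal component (48.4% of the variance) placed the 6 mice on 2% iron between -61.0 and -29.4 and 8 of the 9 others between 22.6 and 42.9. Replicate 2 of the 500 ppm diet stood apart from both, at -0.658. In the panel, the library labelled BXD65/RwwJ had 3.86 CPM over 4 Y-linked genes against 124 to 313 in the other 114, so it goes against its label of a male, and relations across strains are given with and without it. Its Folr2 level was in the high cluster described below.

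The first comparison asked how the genes differed between the highest and the lowest stated iron content. All 10 were higher in the mice on 2% iron than on 50 ppm, and in none did the groups overlap. The difference passed the test (edgeR, adjusted p under 0.05) for all 10, with a median log2 difference of 1.68, beside a median of 0.0092 over all 13560 genes tested. Among all genes tested, 8.52% passed the test as higher and 19.2% had non-overlapping higher values. The members were chosen with earlier results of these data known, so this contrast with all genes is a description. Because the RNA was from whole liver, more Kupffer cells and more RNA of these genes per cell cannot be told apart.

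**Figure D1:**
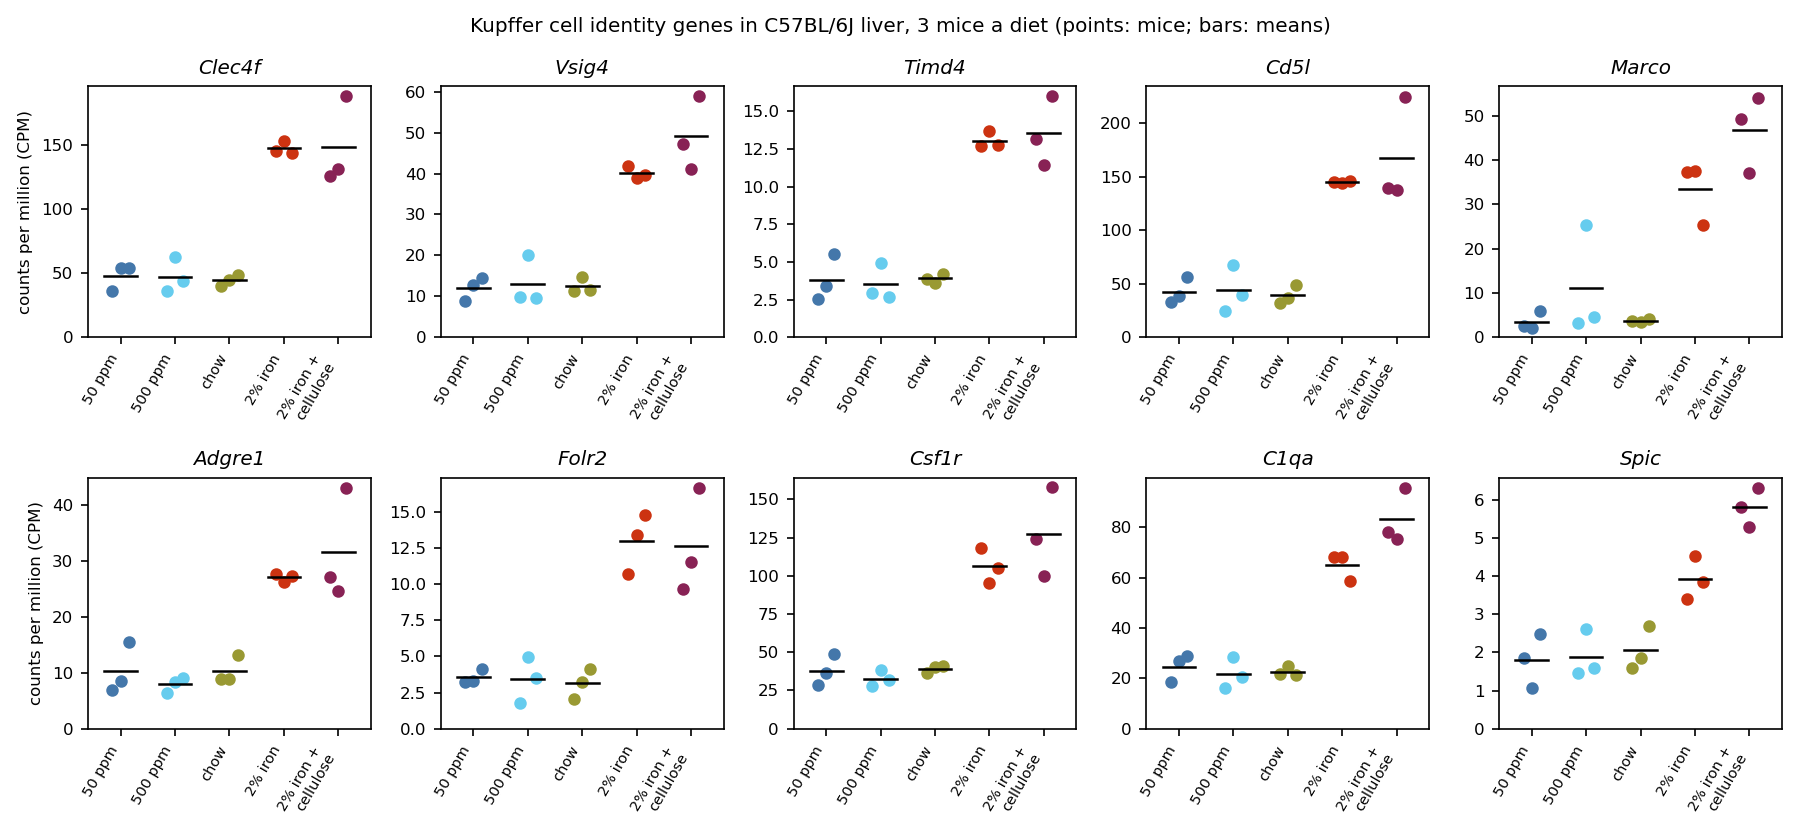
Levels of the 10 genes (CPM, linear axes from 0) by diet; each point is 1 mouse and each bar the mean of 3 mice. The 2% iron mice lie above all mice on 50 ppm and chow in each of the 10 panels, and the middle 500 ppm point of Marco (25.4 CPM) reaches the level of the lowest 2% iron mouse (25.3 CPM).

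Among the surface receptors, Clec4f was at 145, 154 and 144 CPM in the 3 mice on 2% iron and at 35.9, 53.7 and 54.2 CPM on 50 ppm. The 2% mice were tightly grouped and far above the highest mouse on 50 ppm, with a log2 difference of 1.62 (SE 0.21; edgeR, adjusted p = 0.000534). Vsig4 was at 41.9, 38.9 and 39.6 CPM on 2% iron and at 8.92, 12.8 and 14.4 CPM on 50 ppm, a log2 difference of 1.73 (SE 0.26; edgeR, adjusted p = 0.00103). Both receptors take part in capturing particles from blood, Clec4f by binding sugars and Vsig4 by binding complement fragments.

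Timd4 was at 12.7, 13.7 and 12.8 CPM on 2% iron and at 2.52, 3.38 and 5.55 CPM on 50 ppm, a log2 difference of 1.76 (SE 0.26; edgeR, adjusted p = 0.00102). Folr2 was at 10.7, 13.4 and 14.8 CPM on 2% iron and at 3.20, 3.29 and 4.14 CPM on 50 ppm, a log2 difference of 1.86 (SE 0.32; edgeR, adjusted p = 0.00233). These 2 receptors are known from embryo-derived, long-lived resident macrophages, and their differences lay within 1 SE of those of Clec4f and Vsig4.

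Marco, whose product binds bacteria and modified lipoproteins, had the widest difference of the 10. It was at 37.3, 37.6 and 25.3 CPM on 2% iron and at 2.42, 2.03 and 5.97 CPM on 50 ppm, a log2 difference of 3.23 (SE 0.63; edgeR, adjusted p = 0.00469). The mean rose from 3.47 ± 2.17 to 33.4 ± 6.99 CPM (SD, n = 3). Its level in the lowest 2% mouse was still above that of every mouse on 50 ppm or chow.

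The secreted products were among the most abundant members. Cd5l was at 145, 144 and 146 CPM on 2% iron and at 32.9, 38.3 and 56.3 CPM on 50 ppm, a log2 difference of 1.77 (SE 0.32; edgeR, adjusted p = 0.0029). C1qa was at 68.2, 68.1 and 58.8 CPM on 2% iron and at 18.5, 26.8 and 28.7 CPM on 50 ppm, a log2 difference of 1.40 (SE 0.19; edgeR, adjusted p = 0.000646). The other 2 chains of C1q moved with it: C1qb rose from 20.5 ± 2.73 to 63.8 ± 6.25 CPM (log2 difference 1.64, SE 0.17) and C1qc from 24.8 ± 5.40 to 65.6 ± 4.71 CPM (log2 difference 1.40, SE 0.18; SD, n = 3), each past the edgeR threshold.

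Of the genes shared by most tissue macrophages, Csf1r was at 118, 95.6 and 105 CPM on 2% iron and at 28.5, 36.6 and 48.9 CPM on 50 ppm, a log2 difference of 1.48 (SE 0.19; edgeR, adjusted p = 0.000584). Adgre1 was at 27.8, 26.2 and 27.4 CPM on 2% iron and at 6.88, 8.51 and 15.6 CPM on 50 ppm, a log2 difference of 1.38 (SE 0.28; edgeR, adjusted p = 0.00536). In both genes replicate 3 of the 50 ppm diet was the highest of its group, as it was in all 10 members.

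Spic, the transcription factor of the set, is known from the iron-recycling macrophages of spleen red pulp. It was the least abundant member, at 3.40, 4.53 and 3.84 CPM on 2% iron and at 1.84, 1.06 and 2.49 CPM on 50 ppm, a log2 difference of 1.11 (SE 0.30; edgeR, adjusted p = 0.0252). Its lowest library held 11 estimated counts, so counting error is a larger part of its spread. Its call is the weakest of the 10: over 13 alternative analyses the adjusted p ran from 0.0121 to 0.0862, and it was lost when replicate 2 or 3 of the 2% diet or replicate 1 or 2 of the 50 ppm diet was left out (adjusted p between 0.0599 and 0.0862).

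The same direction held against chow and 500 ppm, in comparisons that share the 2% iron mice with the first comparison. Against chow all 10 members passed the test as higher (median log2 difference 1.70), beside 11.9% of all genes tested. Genes of other cells also passed as higher against chow: 7 of 10 stellate, 4 of 9 monocyte, 8 of 12 activated phagocyte and 5 of 6 erythroid genes tested, while 1 erythroid gene passed as lower. The stellate genes summed to 387.2 to 498 against 289 to 305 CPM and the monocyte genes to 24.9 to 28.3 against 7.14 to 10.8 CPM, and their part in the members' differences was not tested. Against 500 ppm 9 of 10 passed as higher (median 1.67), beside 6.59% of all genes. There 1 of 10 stellate, 2 of 9 monocyte, 4 of 12 activated phagocyte and 4 of 6 erythroid genes tested passed as higher, and their part was not tested either. Across both comparisons the other 9 differed by 0.92 (Spic against chow) to 2.02 (Folr2 against chow) on the log2 scale, and Marco by 3.15 (SE 0.62) against chow and 1.53 (SE 0.54) against 500 ppm.

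The exception, Marco against 500 ppm, had an edgeR adjusted p of 0.0832. Marco was at 3.19, 25.4 and 4.46 CPM in the 500 ppm mice. The middle value belongs to replicate 2, the library that stood apart on the first principal component, while the other two were as low as on 50 ppm. Without it the log2 difference of Marco was 3.11 (SE 0.34; edgeR, adjusted p = 0.000129) and all 10 members passed. That library also had the highest values of its group for 9 of the 10 members, for the summed neutrophil genes (11.1 CPM against 1.37 and 3.44) and for the summed erythroid genes (150 CPM against 63.3 and 80.6). The part of these in the result was not tested.

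The Spic calls rested on single mice here as well. Against chow its adjusted p was 0.0389 (edgeR) and reached 0.129 without replicate 1 of the chow diet. Against 500 ppm it was 0.0376 and reached 0.138 without replicate 1 of the 500 ppm diet. The remaining 8 members passed the test in all 13 alternatives of each of the 3 comparisons.

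**Figure D2:**
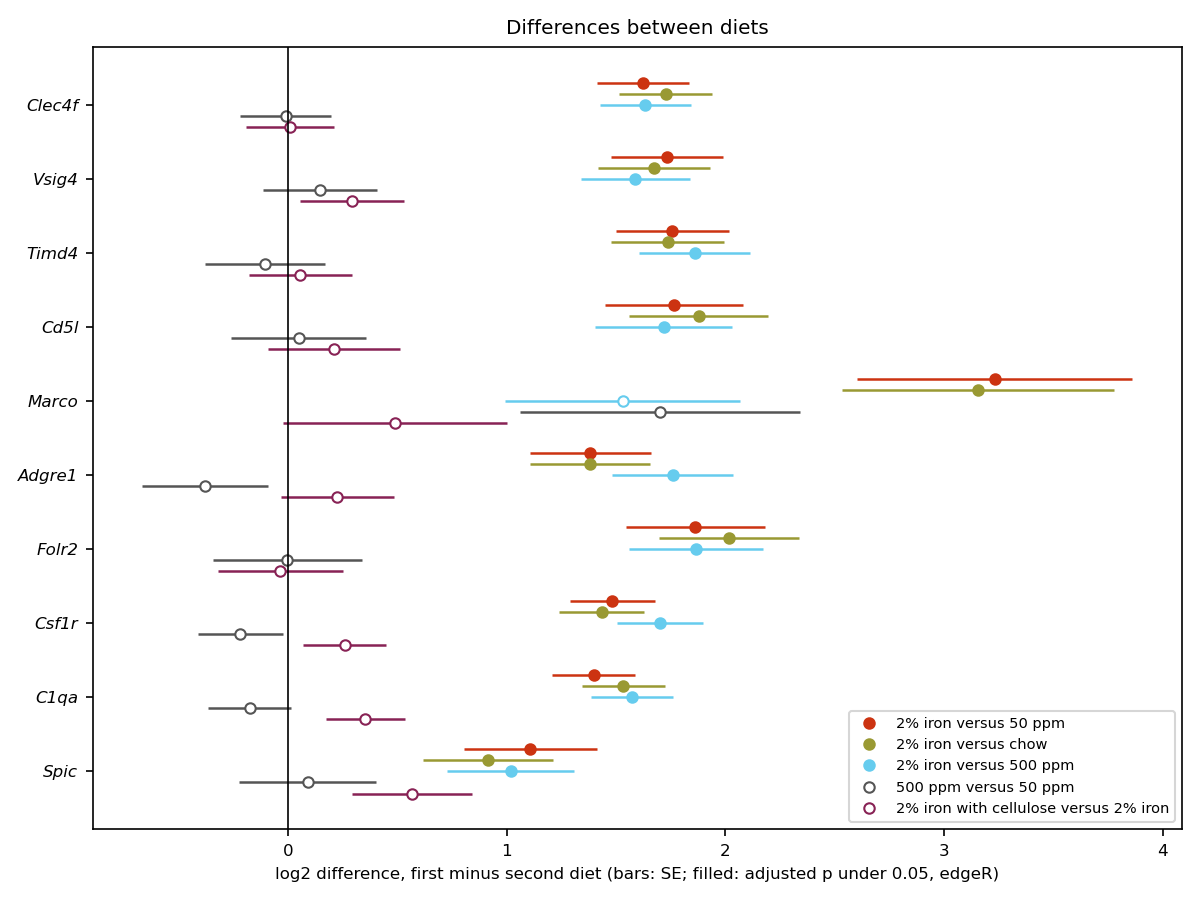
Log2 differences (first diet minus second) of each gene in 5 comparisons, with SE bars, from edgeR with 3 mice a group; filled points have an adjusted p under 0.05. The 3 comparisons of 2% iron with a lower diet lie between 0.92 and 3.23, filled except for Marco against 500 ppm, and the other 2 comparisons hold no filled point.

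Between the diets without 2% iron no member passed the test. Against 50 ppm, the 500 ppm mice gave log2 differences between -0.38 (Adgre1) and 1.70 (Marco, SE 0.64), and the median was -0.01. Of all genes tested 0% passed by edgeR (0 of 13560; 0 by DESeq2), and the unadjusted p was below 0.05 for Marco alone among the members (p = 0.0188; edgeR, adjusted p = 1). Without replicate 2 of the 500 ppm diet the differences ran from -0.47 to 0.12 and 9 of 10 were below 0. Chow against 50 ppm gave differences between -0.15 (Folr2) and 0.19 (Spic), and 0.391% of all genes passed. At 3 mice a group with SEs of 0.19 to 0.73, differences of this size were not detectable.

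The 2% diets with and without named cellulose did not differ past the threshold in any member. Against 2% iron alone none passed the test, beside 0.0811% of all genes, and no unadjusted p was below 0.05. The log2 differences ran from -0.04 (Folr2, SE 0.29) to 0.57 (Spic, SE 0.27). Spic was at 5.80, 5.29 and 6.32 CPM on the cellulose diet and at 3.40, 4.53 and 3.84 CPM on 2% iron alone. C1qa was at 78.0, 75.4 and 95.7 CPM and at 68.2, 68.1 and 58.8 CPM. These 2 were the only members whose groups did not overlap, both higher with cellulose, while 8.08% of all genes had non-overlapping higher values.

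Replicate 3 of the cellulose diet was the highest of its group in all 10 members, for example at 189 CPM of Clec4f against 126 and 131, and at 225 CPM of Cd5l against 140 and 138. Against 50 ppm all 10 members were higher on the cellulose diet, with log2 differences from 1.61 (Adgre1) to 3.72 (Marco) and a median of 1.78. All 10 passed the edgeR test, beside 15.4% of all genes as higher, and all 10 calls held in the 13 alternatives. This comparison shares the 50 ppm mice with the first. The neutrophil genes summed to 9.09 to 84.4 CPM on the cellulose diet, and 5 of 6 tested passed as higher than on 50 ppm. The highest sum was in replicate 1, with 9.09 and 15.9 CPM in replicates 2 and 3. Replicate 3 had the highest erythroid sum of that diet, 438 CPM against 167 and 187. The part of either in the members' levels was not tested.

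The size of the change was also compared between members. When each was expressed relative to the mean log2 CPM of the other 9 in the same library, Marco went from -1.89 ± 0.51 on 50 ppm to -0.14 ± 0.32 on 2% iron (SD, n = 3), a relative gain of 1.75. Adgre1, Csf1r and C1qa went down relative to the rest, by -0.33, -0.29 and -0.39. In these 4 the 3 mice of each diet did not overlap, but the exact permutation test (two-sided) gave p = 0.1, the smallest that 3 against 3 mice allow, so the test cannot show that these members differ from the rest. For Clec4f, Vsig4, Timd4, Cd5l, Folr2 and Spic the groups overlapped, with differences between -0.72 (Spic) and 0.06 (Folr2). The mean of the other 9 contains Marco, so part of each decrease is Marco's increase.

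Per length of transcript, in TPM (transcripts per M), the order of levels on 2% iron began with Clec4f (107 ± 11.2), Cd5l (79.7 ± 2.90) and C1qa (78.4 ± 9.58; SD, n = 3), the last 2 not differing beyond their spread. Vsig4 (33.8 ± 2.10), Csf1r (28.9 ± 3.07), Marco (19.7 ± 4.81) and Folr2 (15.6 ± 3.08) followed, then Adgre1 (9.01 ± 0.32), Timd4 (6.70 ± 0.54) and Spic (2.62 ± 0.37). On 50 ppm Clec4f was again first at 37.2 ± 10.3 TPM and Spic last at 1.08 ± 0.46 TPM. Marco was at place 8 on 50 ppm, at 2.08 ± 1.31 TPM, and at place 6 on 2% iron.

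Other genes of Kupffer and resident macrophages moved in the same direction. Of 17 listed, 16 passed the test as higher in 2% iron than in 50 ppm and none as lower, with a median log2 difference of 1.33. Of all genes tested 8.52% passed as higher. This list, too, was chosen with earlier results of these data known. Siglec1, the sialoadhesin of macrophages, rose from 9.98 ± 3.02 to 54.5 ± 6.44 CPM (SD, n = 3; log2 difference 2.44, SE 0.31). Fcgr1, a high-affinity antibody receptor, rose from 1.73 ± 0.33 to 6.63 ± 1.05 CPM (log2 difference 1.93, SE 0.29). Tfec, a transcription factor of the macrophage lineage, rose from 1.11 ± 0.42 to 3.30 ± 0.40 CPM (log2 difference 1.55, SE 0.45). Cd14, a receptor for bacterial lipopolysaccharide, was the one gene that did not pass (0.83, SE 0.33; edgeR, adjusted p = 0.112).

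Of 12 listed macrophage transcription factors 4 passed as higher (median log2 difference 0.42), beside 8.52% of all genes. Spi1 (PU.1) rose from 3.18 ± 1.67 to 10.2 ± 0.62 CPM (log2 difference 1.66, SE 0.36), Irf8 from 5.64 ± 0.98 to 11.5 ± 0.63 CPM (1.02, SE 0.23) and Zeb2 from 18.5 ± 3.06 to 31.3 ± 2.98 CPM (0.76, SE 0.15; SD, n = 3). The other was Tfec, which is in both lists. The remaining 8 did not pass. Of these, Nr1h3 gave -0.01 (SE 0.09) and Id3 1.14 (SE 0.48; edgeR, adjusted p = 0.122), named here after their values were seen.

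Of 12 listed signals and receptors of the Kupffer cell niche 2 passed as higher (median 0.30), beside 8.52% of all genes. A count of 2 in so short a list does not set it apart from that share. Csf1, a ligand of Csf1r, rose from 7.79 ± 1.94 to 19.8 ± 0.15 CPM (log2 difference 1.33, SE 0.28; edgeR, adjusted p = 0.00682). Acvrl1, a receptor of bone morphogenetic proteins, rose from 2.40 ± 0.38 to 5.88 ± 1.22 CPM (log2 difference 1.30, SE 0.21). Il34, the other ligand of Csf1r, was at 2.10 ± 0.48 against 1.73 ± 0.80 CPM, a log2 difference of 0.27 (SE 0.37; edgeR, adjusted p = 0.677) that did not pass.

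Of 10 listed genes of heme and iron recycling 6 passed as higher (median 0.87), beside 8.52% of all genes. Hmox1, which opens the heme ring, rose from 10.01 ± 3.42 to 51.8 ± 7.08 CPM (log2 difference 2.36, SE 0.52). Slc40a1, the iron exporter ferroportin, rose from 136 ± 16.6 to 395 ± 38.3 CPM (1.54, SE 0.16). Slc11a1 and Cd163 rose by 1.42 (SE 0.26) and 1.36 (SE 0.30), and both are also in the Kupffer list. Ftl1, Slc40a1 and Hmox1 are also expressed by hepatocytes, so these values are not those of macrophages alone.

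In the other comparisons with 2% iron most Kupffer genes passed again. Of the 17 Kupffer and resident macrophage genes 17 passed as higher against chow, 15 against 500 ppm, and 17 on the cellulose diet against 50 ppm. Of the 12 niche genes 7, 4 and 5 passed as higher in these 3 comparisons, beside 11.9%, 6.59% and 15.4% of all genes. Csf1 was higher than on chow by 1.54 (SE 0.28) and than on 500 ppm by 0.95 (SE 0.27), and Tgfb1 higher on cellulose than on 50 ppm by 1.10 (SE 0.24). No gene of these 2 lists passed in edgeR's test of 500 ppm or chow against 50 ppm, or between the 2% diets.

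Markers of other cells were measured beside these genes, again in 2% iron against 50 ppm, where 8.52% of all genes passed as higher. Of 9 monocyte genes tested 3 passed as higher, Ms4a4c, Itgam and Plac8 (log2 differences 2.35, 1.52 and 1.42, with SEs of 0.51, 0.46 and 0.28). Ms4a4c was at only 0.24 ± 0.14 CPM on 50 ppm and 1.29 ± 0.11 CPM on 2% iron (SD, n = 3), so its difference rests on few counts. The 10 listed summed to 24.9 to 28.3 CPM on 2% iron against 10.2 to 15.9 CPM on 50 ppm. The 10 members summed to 578 to 610 CPM against 141.5 to 236 CPM. Of 12 genes of activated phagocytes 4 passed as higher, with Lgals3 (1.82, SE 0.43) and Cd68 (1.62, SE 0.27) the largest of them. Of 4 tested genes of spleen and peritoneal macrophages 2 passed as higher, Treml4 (1.79, SE 0.29) and Vcam1 (1.35, SE 0.35).

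None of 6 tested neutrophil genes passed in edgeR's test of 2% iron against 50 ppm (2 with an unadjusted p below 0.05), and the 10 listed summed to 6.04 to 15.5 CPM against 1.55 to 2.73 CPM. Cxcr2 and S100a9 gave log2 differences of 0.36 and 3.36 (SE 1.23; edgeR, adjusted p = 0.0823). None of 5 tested lymphocyte genes passed (0 with an unadjusted p below 0.05), and the 10 listed summed to 5.12 to 10.4 against 6.13 to 6.57 CPM. Cd4 and Cd79a gave -0.36 and 0.77, neither past the threshold. Of 10 genes of sinusoidal endothelial cells, the neighbours of Kupffer cells, 2 passed as higher, beside 8.52% of all genes, and none as lower. They were Cdh5 (1.02, SE 0.15) and Stab2 (0.80, SE 0.18). The log2 differences of this list ran from -1.02 to 1.02, with a median of 0.28, so its genes did not all move the same way. It summed to 493.5 to 508.9 against 326.04 to 422 CPM. Of 10 stellate cell genes Colec11 passed as higher (0.43, SE 0.12), beside 8.52% of all genes, while Dcn gave 0.06. Against chow 7 of the 10 passed as higher, beside 11.9% of all genes, among them Col1a1 (1.85, SE 0.48) and Col3a1 (1.42, SE 0.44).

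Of 10 hepatocyte genes 3 passed as lower, Cyp2e1 (-1.07, SE 0.13), Apoa1 (-0.86, SE 0.13) and Pck1 (-0.65, SE 0.19), beside 7.17% of all genes as lower, and the list summed to 97828 to 103461 against 84064 to 96190 CPM. None of 4 tested cholangiocyte genes passed (0 with an unadjusted p below 0.05), with Spp1 at -0.45 and Sox9 at -0.01, and the 6 listed summed to 26.5 to 52.7 against 33.8 to 69.4 CPM. Of 6 tested erythroid genes 5 passed as higher and 1 as lower. Slc4a1, Hbb-bs, Hba-a2 and Hba-a1 had log2 differences of 4.15, 3.83, 3.75 and 3.66, each with an edgeR adjusted p under 0.05, and Alas2, the erythroid enzyme of heme synthesis, one of -1.51. Slc4a1 was at only 0.22 ± 0.15 CPM on 50 ppm and 3.98 ± 2.08 CPM on 2% iron (SD, n = 3), so its difference (SE 1.15) rests on few counts. The globin genes come in near-identical copies, so how reads were split between them is uncertain. The 7 erythroid genes in the table summed to 323 to 478 against 68.0 to 110 CPM. No listed gene that matched the table was at 0 in all 15 libraries, and the part of these other cells in the members' differences was not tested.

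Across the 114 strains on 2% iron every member varied. Marco had the widest range, from 1.499 CPM in BXA26/PgnJ through a median of 28.2 to 178 CPM in NOD/ShiLtJ, a 119-fold span. Folr2 ran from 0.398 CPM in BXD67/RwwJ (6 estimated counts) through 5.45 to 18.5 CPM in BXD8/TyJ, a 46.5-fold span. The other 8 spanned 4.96-fold (C1qa) to 9.15-fold (Timd4).

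Clec4f ran from 32.8 CPM (BXH2/TyJ) through 110 to 224 CPM (BXA2/PgnJ), and Cd5l from 51.6 (BXH2/TyJ) through 124 to 272 CPM (SJL/J). Timd4 ran from 2.65 (BXH2/TyJ) through 11.3 to 24.3 CPM (SJL/J), and Vsig4 from 14.9 (C57BLKS/J) through 34.3 to 77.6 CPM (KK/HlJ). Csf1r ran from 33.1 (CE/J) through 88.2 to 195 CPM (BXD55/RwwJ), and C1qa from 26.9 (CE/J) through 52.3 to 133 CPM (KK/HlJ). A few strains thus hold several of the extremes. Adgre1 ran from 5.28 (CE/J) through 18.8 to 45.4 CPM (NOD/ShiLtJ), and Spic from 1.19 (SWR/J) through 3.67 to 9.57 CPM (BXD74/RwwJ).

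**Figure D3:**
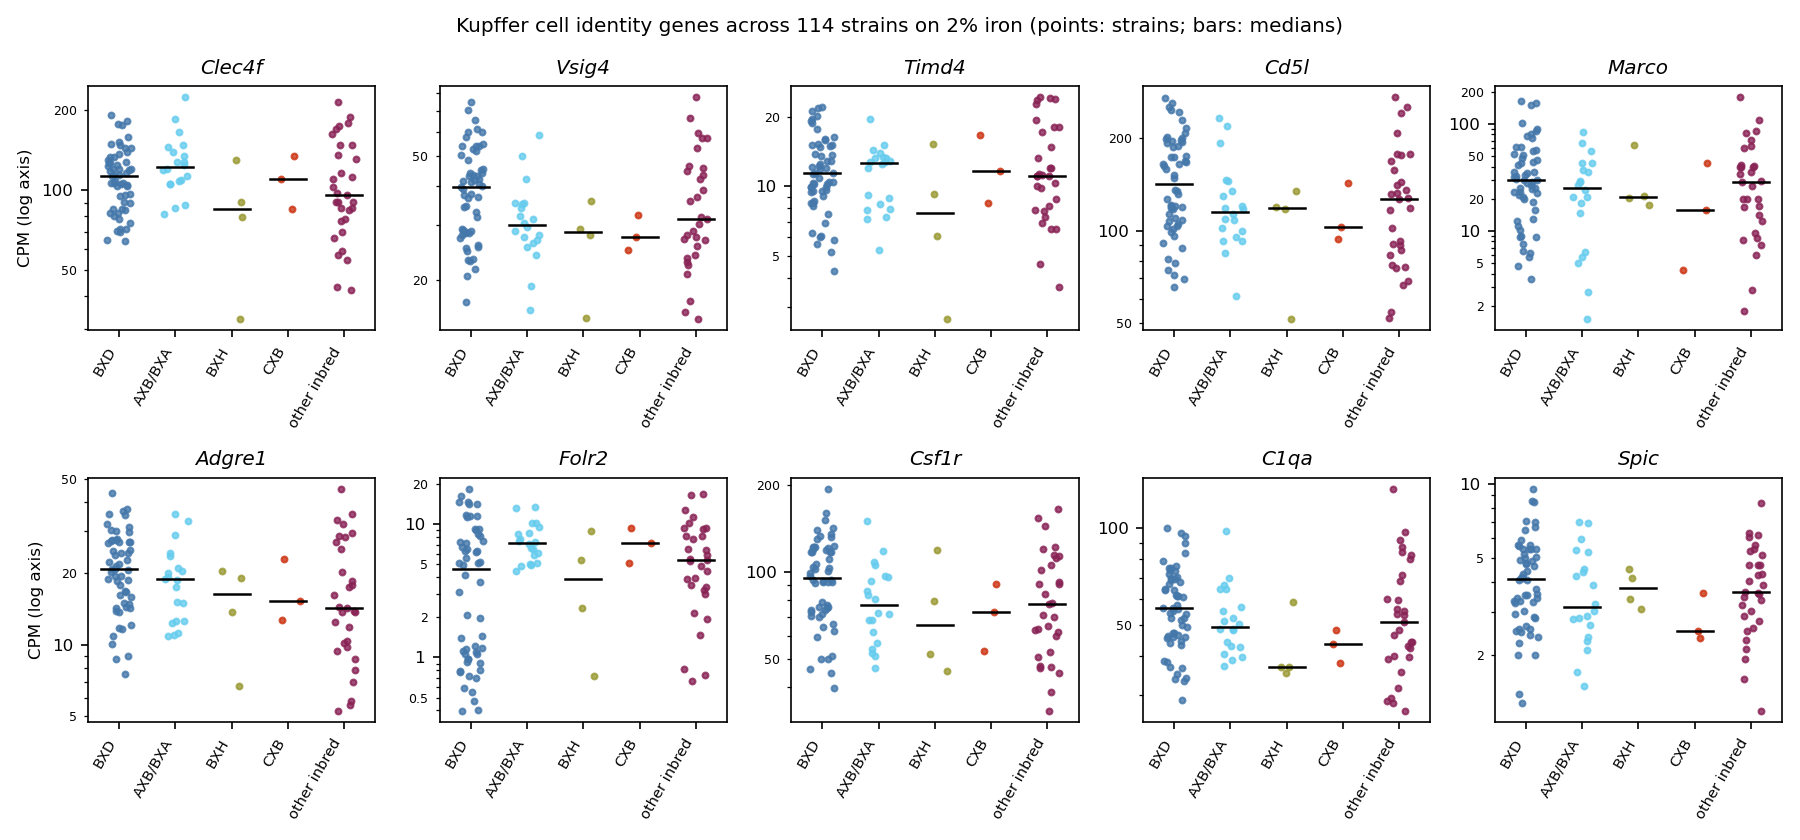
Levels of the 10 genes (CPM, log axes) in 114 strains on 2% iron by family; each point is 1 strain and each bar the median of its family. Marco spreads from 1.499 to 178 CPM, and Folr2 has no BXD strain between 2.08 and 3.09 CPM.

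C57BL/6J, the strain of the diet experiment and a parent of the BXD, AXB, BXA and BXH strains, ranked near the top in every member, from place 97 (Marco, 62.6 CPM) to place 113 (Csf1r, 165 CPM) of 114 from below. The other parents lay lower. DBA/2J ranked between 6 (Folr2, 0.664 CPM) and 64 (Cd5l), A/J between 21 and 79, C3H/HeJ between 14 and 58, and BALB/cByJ between 11 and 55. The 2 mice of 129X1/SvJ, the only strain with a repeat, were at 107 and 89.2 CPM of Clec4f, 24.6 and 9.29 CPM of Marco, and 10.6 and 8.29 CPM of Folr2. Since 1 mouse stands for each strain, a strain's rank carries the spread between mice as well.

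The strain-to-strain SD of log2 CPM was compared with the pooled SD between mice of 1 diet group, from the other experiment. That SD was pooled over all 5 diets, while every strain was on 2% iron, so spread on other diets enters the ratios. The SD between strains was larger for all 10 members, by 1.30-fold (Cd5l) to 3.09-fold (Folr2). The median over 13410 genes was 1.66-fold, so a ratio above 1 was common and not particular to the members. Marco was at 1.70, but its SD between mice rested largely on replicate 2 of the 500 ppm diet. Without that library, a choice made after the data were seen, Marco was at 3.12 and Folr2 at 3.50, the other 8 lay between 1.65 and 2.29, and the median over genes was 1.71. The SD between strains was 1.39 for Marco and 1.37 for Folr2, larger than in 97.3% and 97.2% of genes. For the other 8 it was 0.46 to 0.67, beside a median of 0.35 over all genes.

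The BXD and the AXB and BXA families, the 2 largest, were compared because each segregates the alleles of a different pair of parents. None of the 10 members passed the test (edgeR, 56 against 20 strains), beside 11.6% of 13794 genes. AXB19, AXB19a and AXB19b, and BXD48 and BXD48a, are substrains by name but were each counted as a strain. Vsig4 was the nearest, at 40.05 ± 13.5 CPM in BXD and 31.7 ± 9.77 CPM in AXB and BXA (log2 difference 0.34, SE 0.12; adjusted p = 0.0629). Csf1r followed with 0.27 (SE 0.13; adjusted p = 0.167), and the ranges of both families overlapped in every member. Marco gave 0.51 (SE 0.33). Folr2 gave -0.52 (SE 0.32; adjusted p = 0.319), and passed only with limma on log2 TPM (adjusted p = 0.029 with a pseudocount of 1).

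Folr2 fell into 2 separate clusters of strains, which no other member did. A mixture of 2 normal distributions on log2 CPM separated 32 low from 82 high strains (Ashman's D 4.52, where above 3 was taken as separate, and a BIC gain of 39.7 over 1 distribution). In the BXD family 25 strains were low, from 0.398 through a median of 0.971 to 2.08 CPM, and 31 were high, from 3.09 through 7.45 to 18.5 CPM. The parents of that family lay on either side, DBA/2J at 0.664 CPM and C57BL/6J at 16.6 CPM.

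In the AXB and BXA family, whose parents A/J (3.90 CPM) and C57BL/6J were both in the high cluster, all 20 strains were high, from 4.42 to 13.5 CPM. The 3 CXB strains were high too, from 5.10 to 9.45 CPM, as was their parent BALB/cByJ at 5.28 CPM. Of the 4 BXH strains 1 was low, BXH8/TyJ at 0.731 CPM, and their parent C3H/HeJ was low at 0.816 CPM. Of 31 other inbred strains 6 were low, namely DBA/2J, CBA/J, C3H/HeJ, SEA/GnJ, I/LnJ and NOR/LtJ, between 0.664 and 2.16 CPM. The boundary was not wide: NOR/LtJ at 2.16 CPM was called low and BXH2/TyJ at 2.36 CPM high.

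**Figure D4:**
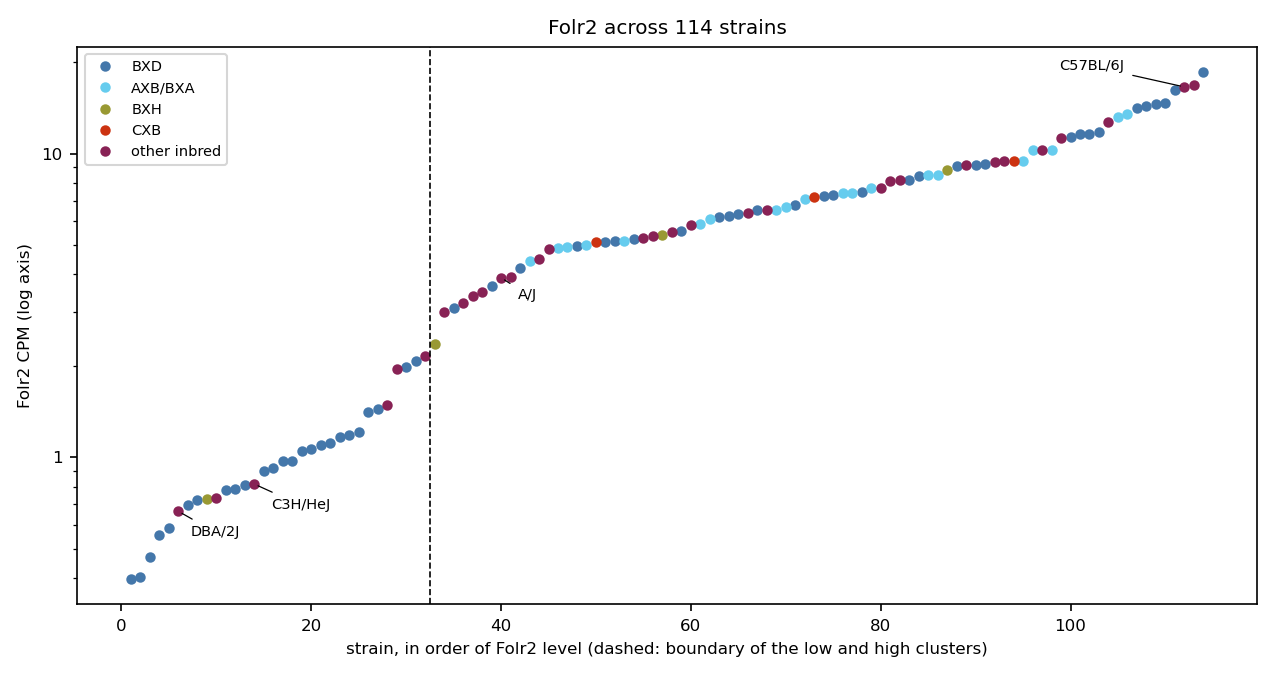
Folr2 (CPM, log axis) in 114 strains ordered by level, coloured by family, with the boundary of the low and high clusters dashed. DBA/2J and C3H/HeJ sit left of the boundary and A/J and C57BL/6J right of it, and no AXB or BXA strain lies on the left.

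The other 9 members did not follow this split. In the 25 low and 31 high BXD strains the median of Clec4f was 114 and 113 CPM, that of Timd4 11.3 and 11.4 CPM, that of Marco 28.4 and 30.3 CPM and that of Spic 4.05 and 4.15 CPM. Cd5l had medians of 165 and 134 CPM and Vsig4 of 36.8 and 42.4 CPM, with ranges that overlapped widely. The clusters were made from Folr2 itself, so its own levels in them are a description.

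The genes whose levels over the 114 strains were most like Folr2 lay on its own chromosome, 7. They were Clns1a (Pearson's r = 0.802), Anapc15 (r = 0.80) and Plekhb1 (r = 0.77), among 12038 genes that averaged 1 CPM or more. These r are pooled over both Folr2 clusters, so the split between the clusters enters them. For these genes r inside each cluster was not computed. Anapc15 at chr7:101863715-101901849 starts 0.00652 Mb from Folr2, Plekhb1 at chr7:100642892-100662414 is 1.18 Mb away and Clns1a at chr7:97696634-97720796 is 4.12 Mb away. Of the 20 genes most like Folr2, a number chosen after the values were seen, all 20 were on chromosome 7, which holds 7.83% of the genes compared. For the other 9 members the count on their own chromosome was 0 to 3 of 20. Counts were made against the C57BL/6J reference, and the part of sequence differences between strains in the Folr2 counts was not tested.

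Over the 114 strains Cd5l was nearest to Sdc3 (r = 0.932), Csf1r to Cybb (0.917), Vsig4 to Csf1r (0.899), C1qa to C1qb (0.89) and Adgre1 to Sdc3 (0.886). Timd4 was nearest to Sdc3 (0.809), Clec4f to Axl (0.804), Spic to Clec4a1 (0.748) and Marco to Hmox1 (0.736). Further genes in the first 3 places were Siglec1 for Clec4f, Nckap1l and Syk for Vsig4, Ptgs1 for Timd4, Itgb3 and Ccl6 for Marco, Laptm5 for Csf1r, Ctss for C1qa, and Cyba and Vav1 for Spic. The r values are descriptions over strains that share parents and family.

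Relations between members across strains were tested for the 9 other than Folr2, whose clusters bar a test of a pooled r. The pooled r of Folr2 given above and its part in the places given below are descriptions. Of 36 pairs 35 had an adjusted p under 0.05 (permutation test, 100000 resamples, Benjamini-Hochberg over 36), and all 35 were positive. The share of all gene pairs that would pass was not computed, so this count does not set the members apart. Ranked by r with a member among 12038 genes, the other members (Folr2 included) had a median place of 20 (Timd4) to 905 (Marco). Pearson's r had a median of 0.71 and ran from 0.0879 (Clec4f with Marco) to 0.899 (Vsig4 with Csf1r), and Spearman's rho from 0.125 to 0.905. The raw p of Vsig4 with Csf1r was 1e-05, the smallest that 100000 resamples can give (adjusted p = 1.2e-05). Clec4f with Marco was the pair that did not pass (permutation p = 0.355, adjusted p = 0.355).

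**Figure D5:**
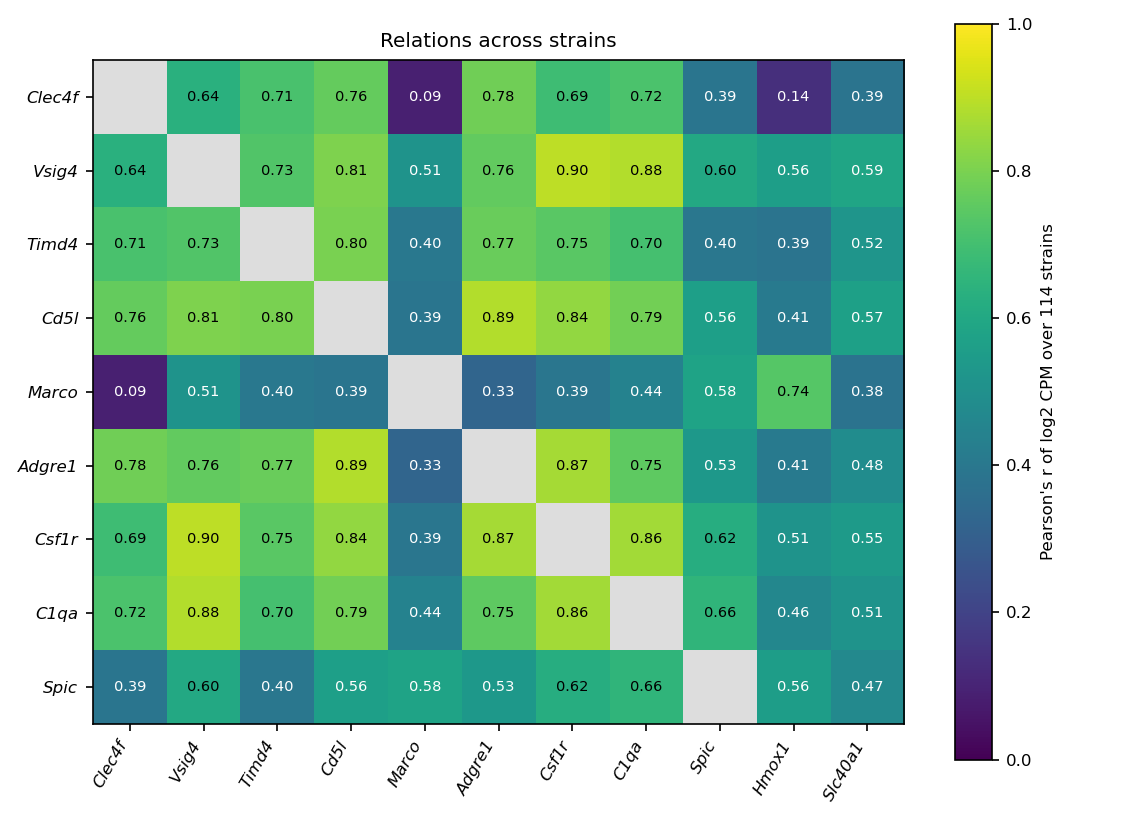
Pearson's r of log2 CPM over 114 strains between 9 members (rows) and the same 9 with Hmox1 and Slc40a1 (columns); grey marks a gene with itself. The row and column of Marco hold values of 0.09 to 0.58 with other members, and 0.74 with Hmox1. Clec4f with Hmox1 is also low, at 0.14.

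Marco was the least like the rest, with r between 0.0879 and 0.579 with the 8 others, and Spic came next, with 0.387 to 0.655. The remaining 7 had r of 0.636 to 0.899 among themselves. Within families the pattern was similar. In BXD 35 of 36 pairs passed (r 0.152 to 0.913, 56 strains), in AXB and BXA 25 of 36 (0.0566 to 0.857, 20 strains) and in the other inbred strains 35 of 36 (0.204 to 0.949, 31 strains). Vsig4 with Csf1r had r = 0.89, 0.854 and 0.936 in these 3, and Clec4f with Marco 0.152, 0.0566 and 0.204. Leaving out the 2 strains farthest from the median of the first gene gave r of 0.12 to 0.896, and leaving out the library labelled BXD65/RwwJ gave 0.0957 to 0.897 with 35 of 36 passing. With substrains of the same name averaged, 110 strains gave r of 0.086 to 0.902 and 35 of 36 pairs passed. BXH and CXB had too few strains for an r.

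With Hmox1 and Slc40a1, 17 of 18 relations of the 9 members passed, also without the library labelled BXD65/RwwJ (r from 0.136 to 0.736, Benjamini-Hochberg over 18). The share of all genes that would pass with Hmox1 and Slc40a1 was not computed. Spearman's rho ran from 0.227 to 0.729. Marco with Hmox1 had r = 0.736 (rho 0.729; permutation p = 1e-05, adjusted p = 1.3e-05) and passed in BXD (0.786), in AXB and BXA (0.651) and in the other inbred strains (0.754), with 0.717 after the 2 farthest strains were left out. Clec4f with Hmox1 had r = 0.136 (permutation p = 0.147, adjusted p = 0.147), but passed by Spearman's rho (0.227; permutation p = 0.0148, adjusted p = 0.0148), by which all 18 passed. With Slc40a1 the members had r of 0.381 (Marco) to 0.586 (Vsig4). Within AXB and BXA 8 of the 18 passed, against 17 in BXD and 13 in the other inbred strains, at 20, 56 and 31 strains. Hmox1 is not limited to macrophages, and whether the signal came from Kupffer cells was not tested.

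For Folr2 the relations were taken inside each cluster. Within the 82 high strains 9 of 11 passed (the 9 members, Hmox1 and Slc40a1), with r from 0.0485 (Marco) to 0.754 (Clec4f; rho 0.736, permutation p = 1e-05, adjusted p = 1.6e-05). Within the 32 low strains 0 of 11 passed by Pearson's r, with r from -0.048 (Csf1r) to 0.364 (Marco; permutation p = 0.0409, adjusted p = 0.45), 1 of them with an unadjusted p below 0.05. At 0.398 to 2.16 CPM, counting error is a large part of the spread in those strains. The share of all genes that would pass with Folr2 inside each cluster was not computed, so these counts do not set the members apart. The difference between the clusters in r was not tested.

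Strains at the extremes showed that the members need not rank together. In BXH2/TyJ Clec4f, Cd5l and Timd4 were the lowest of all 114 strains and Adgre1 was at place 4 from below, while Marco was at place 98 (63.0 CPM) and Spic at place 74. In CE/J Adgre1, C1qa and Csf1r were the lowest, Cd5l was at place 2 and Timd4 at place 21. In KK/HlJ Vsig4 and C1qa were the highest, with Marco at place 37 (19.7 CPM). In NOD/ShiLtJ Marco and Adgre1 were the highest, with Csf1r at place 75 (102 CPM). These strains were picked for their extreme values and each is 1 mouse, so the ranks are a description.

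Csf1, a ligand of Csf1r, ran from 10.5 (BXD15/TyJ) through 19.7 to 34.5 CPM (BUB/BnJ), a 3.30-fold span. Il34, its other ligand, ran from 0.319 (AXB4/PgnJ, 4 estimated counts) through 1.76 to 4.17 CPM (NON/ShiLtJ), a 13.1-fold span whose low end rests on those 4 counts. C1qb had a median of 46.7 CPM, beside 52.3 CPM for C1qa. KK/HlJ was the highest strain for all 3 chains of C1q.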

How the data were processed

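Stranded mRNA libraries were made from a sample of the large lobe, per the labels' protocols. The authors' deposited tables give estimated counts and TPM per gene; the submitters' processing notes name kallisto 0.46 and mm10, and whether the counting used strand is not given in the sources used here. Symbols were matched for 34845 of 35274 and 35612 of 35711 identifiers. Estimated counts were rounded, scaled by TMM and tested with edgeR 4.0.16 (quasi-likelihood test, R 4.3.3) after its low-count filter, with all 5 diets in 1 fit and Benjamini-Hochberg adjustment over all genes; log2 CPM used a prior count of 2. Groups came from the strain and diet labels, which name separate mice, and replicate numbers only follow accession order. Alternatives were RLE size factors, DESeq2 1.42.0, limma 3.58.1 on log2(TPM + 1) and log2(TPM + 0.1), other filters, the groups alone and leaving out each mouse. Strain relations used Pearson's r and Spearman's rho with 100000 permutations (scipy 1.17.1). The edgeR steps were tested on simulated data. Totals of 9.41 to 20.6 M estimated counts a library set the precision, which is lowest for Spic and Folr2.

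Members and gene lists were chosen with earlier results of these data known. Named were all members, C1qb, C1qc, Csf1 and Il34, up to 4 called genes a list with the largest change in 2% iron against 50 ppm (where fewer than 2 were called, those with the highest mean CPM), the 3 genes most like each member over strains, and the extreme and parental strains. Ahsp had no match. Tfec, Cd163 and Slc11a1 are each in 2 lists. The fit without the library labelled BXD65/RwwJ was an alternative. No column lacked a sample.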

Additional observations from a re-analysis of the deposited data

Results flagged for a closer look

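Among the 4 BXH strains, 1 strain lay far from the other 3 in 2 of the 10 members, by Dixon's test, which chance meets in about 1 in 20 groups. The share of all genes flagged in these 4 mice was not computed. The members also vary together, so the count is not a result about them. Marco was at 63.0 CPM in BXH2/TyJ and at 17.4 to 21.2 CPM in the other 3, the gap being a share of 0.916 of the whole range. C1qa was at 58.8 CPM in BXH10/TyJ and at 35.1 to 36.9 CPM in the other 3, a share of 0.924. Each strain is 1 mouse, and no cause was tested.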

How the results depend on the processing

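The number of members past the threshold lay between 9 and 10 in 2% iron against 50 ppm and against chow, between 8 and 10 against 500 ppm, and at 10 on cellulose against 50 ppm, over 13 alternatives each. It was 0 throughout in the other 3 diet comparisons. In BXD against AXB and BXA it was 0, but 1 (Folr2) with limma on log2(TPM + 1) and 1 on log2(TPM + 0.1), and the cause was not tested. The calls lost were those of Spic. Marco against 500 ppm, not called, gave 1.94 and 2.24 with limma at the 2 pseudocounts (adjusted p = 0.0298 and 0.0492).

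No direction changed in a comparison of a 2% diet with a lower one. Among uncalled differences sign changes were common between diets. In at least 1 of 13 alternatives the sign changed for 8 of the 10 members in 500 ppm against 50 ppm. It changed for 8 in chow against 50 ppm and for 5 between the 2% diets, but for 0 between the BXD and the AXB and BXA families. For example, Folr2 on cellulose against 2% iron turned from -0.04 to 0.095 and 0.099 with limma at the pseudocounts of 1 and 0.1. It ran from -0.29 to 0.13 when each mouse was left out. With a mouse left out, Adgre1 in 500 ppm against 50 ppm ran from -0.59 to 0.056, and in chow against 50 ppm Folr2 ran from -0.41 to 0.064 and Spic from -0.068 to 0.51. Arms left with fewer mice were assumed to vary like the other groups.

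Over all genes, the count passing fell from 2127 to 1093 (limma) or 1003 (without replicate 1 of 50 ppm) in 2% iron against 50 ppm, from 3087 to 1921 against chow, from 1538 to 788 against 500 ppm, from 4026 to 2466 on cellulose against 50 ppm and from 1606 to 910 between the families. It ran from 4 to 145 around 53 in chow against 50 ppm, and the share passing ran from 0% to 1.54% around 0.0811% between the 2% diets. Depth limits Spic and the low Folr2 strains most. No paired analysis was possible because the labels carry no replicate numbers that link mice across diets.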
